A study of Mus musculus with 4 samples.

Results

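The genes examined here make, polymerize, sulfate or trim glycosaminoglycans, or supply the sulfate and sugar nucleotides that these reactions use. They were taken as a list of 37 named mouse genes with known roles. No measured value is part of that rule, but the list was chosen with earlier results of these data known. Of the 55141 genes in the expression table, 36 of the 37 were found by their symbol and Chst15 by its identifier (ENSMUSG00000030930), since its row joins Chst15 with an overlapping locus. A total of 31 of the 37 had at least 80 reads summed over the 4 libraries, as had 7558 of all genes.

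RNA was sequenced from articular chondrocytes that had been released from mouse femoral heads with collagenase at 3 weeks of age and cultured with fetal bovine serum, with 1 library for each of 4 conditions. The first was wild type (C57BL/6). The second was Cart-miR-23clus KO (Col2a1-cre with both miR-23a/b clusters flox/flox, C57BL/6), here the cluster knockout, in which Cre is driven by the Col2a1 promoter, so that the deletion is limited to cells in which that promoter is or was active. The third was miR-26a KO (genotype miR-26a -/-, C57BL/6), here the miR-26a knockout, and the last was the same genotype (C57BL6/J) after transfection of a miR-26a mimic. The study's methods define the controls of the cluster knockout as floxed mice and name Control chondrocytes for the sequencing. Its results describe wild-type chondrocytes there, as the sample label does, so the exact genotype of the control is not certain. The protocol names a negative control siRNA without saying which library received it, and the number of animals behind each library is not given. The libraries are 3′ mRNA libraries, which do not measure mature miRNAs, so the deletions and the mimic were not checked here.

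Glycosaminoglycans are long sugar chains that, apart from hyaluronan, are built on proteoglycan core proteins in the Golgi. A linker is made first, and then either a chondroitin chain, which can be turned in part into dermatan sulfate, or a heparan sulfate chain is added, and both are sulfated from the donor PAPS. In cartilage the chondroitin sulfate of aggrecan holds the water that lets the tissue carry load, and a loss of sulfate import or of PAPS synthesis causes skeletal dysplasia in humans and mice.

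The libraries held 1328042 to 1498579 reads over all genes of the expression table. Taking 3 reads as the floor, 0 reads in a library allows a level of up to 2.00 to 2.26 CPM (reads scaled to the total of the library). The 20 chondrocyte markers all passed the read minimum and none was at 0, and they summed to 43267 CPM in wild type against 32149.8 to 32991 in the other libraries. Markers of other cell types differed between the libraries. The 16 osteoblast markers, of which Phex and Mepe were at 0 throughout, summed to 47990.1 CPM in wild type, 14006 in the cluster knockout, 27479.5 in the miR-26a knockout and 28938 with the mimic. The 17 macrophage markers, none at 0, summed to 934, 1074, 316 and 599 in that order, and the 12 fibroblast markers, with Pi16 at 0, to 2001, 1519.5, 2899 and 2945. The 20 cell cycle genes summed to 392 CPM in wild type and 786 to 860.4 in the other 3 libraries. Because each condition has 1 library, no difference has a replicate check and none was tested. In such bulk samples fewer cells of a type and less RNA per cell cannot be told apart. Each ratio is a ratio of TPM values, with an exact 95% interval that covers counting error only.

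The deleted clusters hold miR-23a, miR-23b, miR-27a, miR-27b and miR-24. The mature sequences of miR-23a, miR-27a, miR-27b, miR-24 and miR-26a, from RefSeq (GRCm38.p6), have 4 different seeds, the bases 2 to 8 that pair with targets, shown in capitals. miR-27a and miR-27b share a seed. miR-24 is made from both clusters and miR-26a from 2 genes. The sense strand of the mimic equals miR-26a-5p in 22 of 22 bases.
miR-23a-3p (chr8:84208563-84208583, + strand): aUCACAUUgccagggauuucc
miR-27a-3p (chr8:84208727-84208747, + strand): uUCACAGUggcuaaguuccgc
miR-27b-3p (chr13:63300760-63300780, + strand): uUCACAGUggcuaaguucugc
miR-24-3p (chr8:84208875-84208896 and chr13:63301251-63301272, + strand): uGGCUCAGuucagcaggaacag
miR-26a-5p (chr9:119031811-119031832 and chr10:126995543-126995564, + strand): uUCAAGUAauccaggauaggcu

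The glycosaminoglycan genes as a group were at similar levels in the 4 libraries. They summed to 3196 CPM in wild type, 3025 in the cluster knockout, 3347 in the miR-26a knockout and 3249 with the mimic. By role, the linker enzymes summed to 220 to 239 CPM, the chondroitin polymerizing enzymes to 651 to 683, and the chondroitin and dermatan modifying enzymes to 397 to 452. The supply genes summed to 1309.9 in wild type, 1057 in the cluster knockout, 1377 in the miR-26a knockout and 1324 with the mimic, the heparan sulfate genes to 535, 634, 646 and 635. The sum of the 7 supply genes was thus lowest in the cluster knockout library, as were 4 of its 7 genes, while Ugdh and Slc35b2 were lowest in wild type and Ugp2 in the miR-26a knockout. The sum of the 7 heparan sulfate genes was lowest in wild type, as were 5 of its 7 genes, while Sulf2 was lowest in the cluster knockout and Extl3 with the mimic. Over the lists of other supply genes and of other heparan sulfate genes the sums had another order, which changed in both lists when 1 gene was left out. The list of other supply genes also holds genes of other roles, such as the phosphatase Pxylp1 and the sulfotransferase Chst9, which was at 0. Its 18 genes in the files summed to 1065 CPM in wild type, 1193 in the cluster knockout, 1075 in the miR-26a knockout and 1059 with the mimic, highest in the cluster knockout. Without Gfpt1, an enzyme of hexosamine synthesis and the gene of this list with the widest range in CPM between the libraries, the other 17 summed to 785, 744, 849 and 811 CPM, lowest in the cluster knockout. The 17 other heparan sulfate genes summed to 375, 569, 335 and 319 CPM, and without Hs6st2, chosen in the same way after the values were seen, the other 16 summed to 248, 200.3, 214 and 206, again lowest in the cluster knockout. Per gene length, in TPM, Papss2 was the highest of the 37 in all 4 libraries (277 in wild type), followed in wild type by Slc26a2 at 91.0, Chsy1 at 74.7, Slc35b2 at 70.3, Csgalnact1 at 62.6 and Xylt1 at 60.4. In the cluster knockout Chpf was in the second place with 93.3 TPM. TPM divides by gene length although a 3′ library gives about 1 read per transcript, so this order between genes depends on that division.

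**Figure D1:**
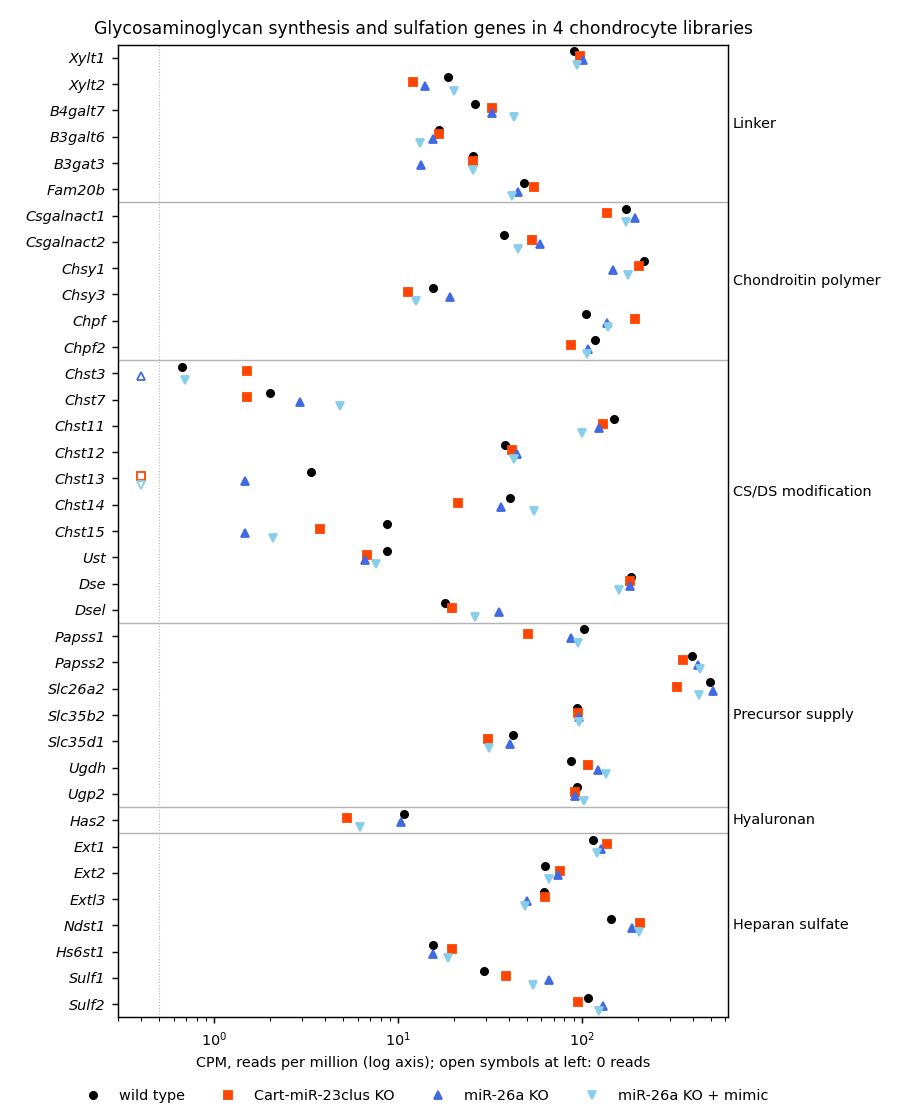
Level of each of the 37 genes (rows, grouped by role) in CPM on a log axis, with 1 symbol for each of the 4 libraries and open symbols at the left for 0 reads. Most genes have their 4 symbols close together, Papss1, Slc26a2 and Chst14 have the cluster knockout symbol lowest, Chpf has it highest, and the genes under the read minimum are found mainly among the sulfotransferases.

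The cluster knockout was compared with wild type to ask what the loss of both clusters does to the transcripts of these chondrocytes. Of the 31 genes with enough reads, 1, Papss1, was below 0.5-fold, where 2.8% of all genes were, and none was above 2-fold, where 3.07% were. The ratios ran from 0.479 (Papss1) to 1.80 (Chpf), and 26 of 31 lay within 1.5-fold. Chpf was above 1.5-fold (9.76% of all genes), and Xylt2, Chst14, Papss1 and Slc26a2 were lower by more than 1.5-fold (10.3%). The median log2 ratio was -0.02 with 13 genes higher and 18 lower, beside -0.02 over all 7558 genes. B3gat3, Slc35b2 and Extl3, among the 18 lower in TPM, were slightly higher in CPM. The interval lay above 1 for 2 genes, Chpf and Ndst1, or 6.45% of the 31 against 12.9% of all genes. It lay below 1 for 6, Csgalnact1, Chpf2, Chst14, Papss1, Papss2 and Slc26a2, or 19.4% against 13.6%. The osteoblast markers were lower in the same library, 10 of the 11 with enough reads and with a median log2 ratio of -2.27. The cell cycle genes were higher in 15 of 17 (median 1.08) and the macrophage markers in 8 of 10 (median 0.29). The fibroblast markers were higher in 4 of 6 (median 0.25), while their sum over the list of 12 was lower, at 1519.5 against 2001 CPM. The part of these markers in the differences was not tested.

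The miR-26a knockout was next compared with wild type, with 1 library on each side. Sulf1 was above 2-fold, as were 2.84% of all genes, and no gene of the 31 was below 0.5-fold, as were 1.53%. The ratios ran from 0.520 (B3gat3) to 2.25 (Sulf1) and 27 of 31 lay within 1.5-fold. Csgalnact2, Dsel and Sulf1 were above 1.5-fold (9.42% of all genes) and B3gat3 was lower by more than 1.5-fold (6.95%). The median log2 ratio was 0.06 (18 higher, 13 lower) beside 0.03 over all genes. The interval lay above 1 for Csgalnact2, Chpf, Dsel, Ugdh, Ndst1 and Sulf1, or 19.4% of the 31 against 12.7% of all genes. It lay below 1 for B3gat3 and Chsy1, or 6.45% against 9.05%. The macrophage markers were lower in the miR-26a knockout, 10 of the 10 with enough reads and with a median log2 ratio of -1.70, while the 6 fibroblast markers with enough reads had a median of 0.48. The cell cycle genes were higher in 17 of 17 (median 1.05), the osteoblast markers lower in 10 of 11 (median -0.70) and the chondrocyte markers lower in 16 of 20 (median -0.46). Their part in these differences was not tested. Both comparisons share the wild type library.

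When the mimic library was set against the miR-26a knockout, none of the 31 genes lay past 2-fold in either direction, where 0.609% of all genes were above and 0.556% below. The ratios ran from 0.647 (Chsy3) to 1.92 (B3gat3), and 28 of 31 were within 1.5-fold. B3gat3 and Chst14 were above 1.5-fold (4.19% of all genes) and Chsy3 was lower by more than 1.5-fold (4.35%). The median was -0.05 with 12 genes higher and 19 lower, beside -0.01 over all genes. B3gat3 and Chst14 had an interval above 1 (5.41% of all genes) and Slc26a2 one below 1 (5.74%). The macrophage markers were higher with the mimic in 10 of 10, with a median log2 ratio of 0.82, and the osteoblast markers in 10 of 11, with a median of 0.21. Their part in these differences was not tested.

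The last comparison set the cluster knockout against the miR-26a knockout, the 2 deletions side by side. No gene of the 31 passed 2-fold in either direction, where 2.12% of all genes were above and 2.5% below. B3gat3 was above 1.5-fold (6.88% of all genes), and Chsy3, Chst14, Dsel, Papss1, Slc26a2 and Sulf1 were lower by more than 1.5-fold (9.67%). The median log2 ratio was -0.08 with 11 genes higher and 20 lower, beside -0.06 over all genes. Intervals lay below 1 for 8 genes, Csgalnact1, Chst14, Dsel, Papss1, Papss2, Slc26a2, Sulf1 and Sulf2, where 12.3% of all genes did. They lay above 1 for B3gat3, Chsy1 and Chpf, where 8.57% did. All 7 supply genes had a TPM ratio below 1, with a median log2 ratio of -0.30 beside -0.06 over all genes. Of all genes with an annotated 3′ UTR, 55.8% of those without a miR-26a seed match and 59.7% of those with one were below 1. Of the supply genes only Papss1, Papss2 and Slc26a2 had an interval below 1. Ugp2, at a ratio of 0.986, was slightly higher in CPM, at 91.9 against 91.0. In this comparison the osteoblast markers had a median of -1.04, the fibroblast markers, of which 5 of 6 were lower, one of -0.64 and the macrophage markers one of 1.77, and their part in these differences was not tested. It shares the miR-26a knockout library with the 2 comparisons before it.

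**Figure D2:**
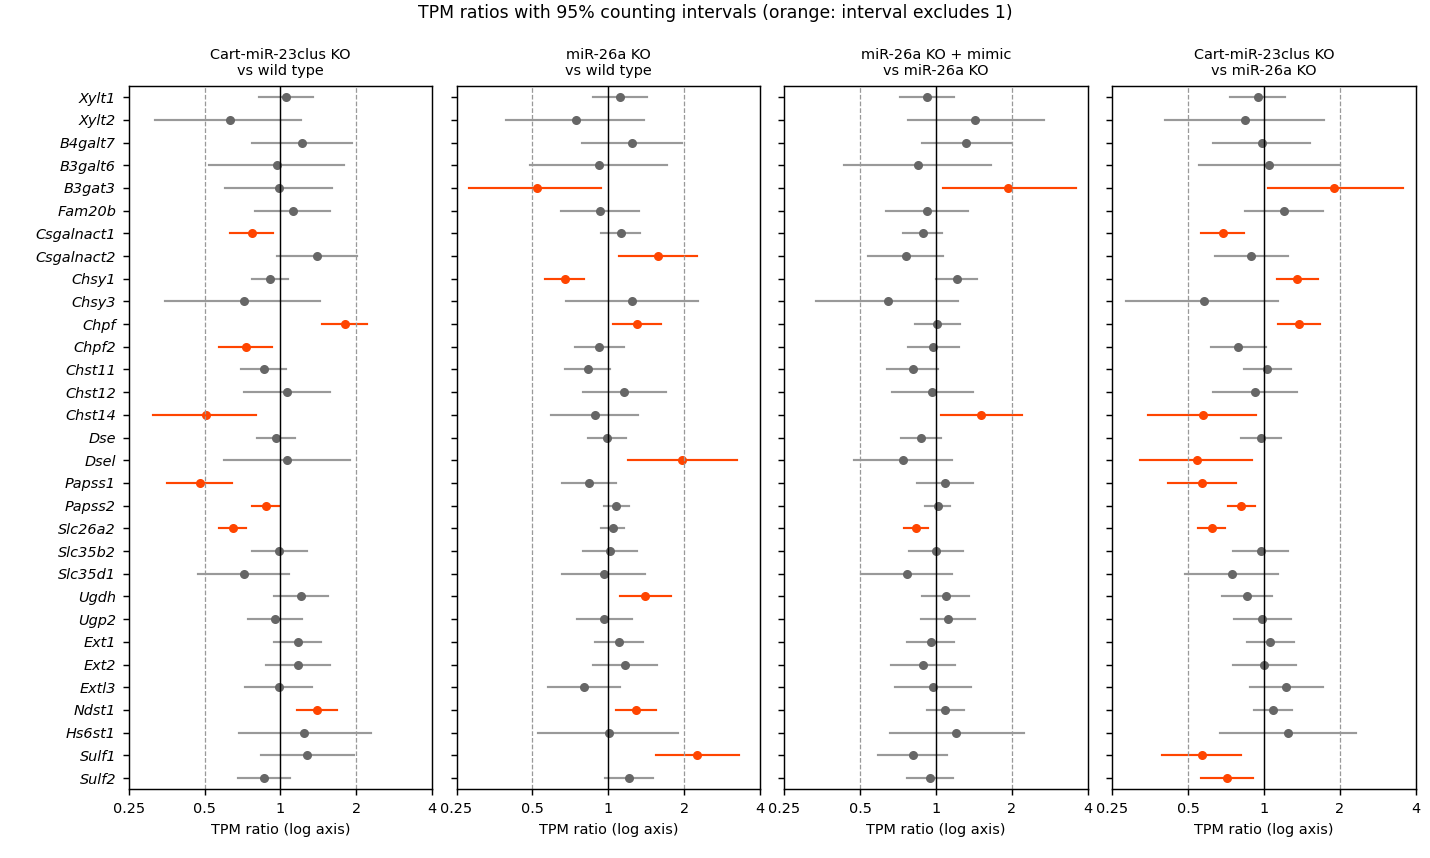
TPM ratio (points, log axis) with its exact 95% counting interval (lines) for the 31 genes with enough reads in the 4 comparisons, with dashed lines at 0.5 and 2 and orange where the interval leaves out 1. Only Papss1 in the first panel lies below 0.5 and only Sulf1 in the second above 2, and most lines cross 1.

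A gene was also counted where 1 library differed from each of the other 3 beyond counting error. In the cluster knockout, 5 of the 31 genes, or 16.1%, were below all 3 others, which was the case for 4.49% of all genes. These were Csgalnact1, Chst14, Papss1, Papss2 and Slc26a2, of which 3 belong to sulfate supply. Only Chpf was above all 3 others there (3.7% of all genes). Wild type was below the others for Chpf and Ndst1 (4.33%) and above them for none (3.22%). The miR-26a knockout library was below the others for B3gat3 (0.754%) and above for none (1.14%), and the mimic library stood apart for none of the 31 (0.794% above, 0.662% below).

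The supply of sulfate and sugar nucleotides starts with Slc26a2, the sulfate transporter of the cell membrane, which had the most reads of this role over all libraries together. It was at 496 CPM in wild type, 328 in the cluster knockout, 517 in the miR-26a knockout and 431 with the mimic. The cluster knockout library was lowest, at 0.646 of wild type (95% interval 0.573 to 0.728) and 0.621 of the miR-26a knockout (0.550 to 0.701). With the mimic the level was 0.829 of that in the miR-26a knockout (0.744 to 0.925).

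Papss1 and Papss2 each join sulfate to ATP in 2 steps and so make PAPS. Papss1 (chr3:131564768-131643671, + strand, GRCm38) was at 103 CPM in wild type, 50.5 in the cluster knockout, 86.6 in the miR-26a knockout and 94.5 with the mimic, from 154, 67, 118 and 137 reads. The value in the cluster knockout was thus the lowest, 0.479 of wild type (0.354 to 0.642), and the other 3 overlapped in their intervals. Papss2 (chr19:32595790-32667187, + strand), the form in which human and mouse mutations cause a dysplasia, was at 395, 354, 426 and 435 CPM. Its ratio of 0.874 (0.773 to 0.988) in the cluster knockout was nearer to 1 than that of Papss1. Papss1 gave 12.5% of the reads of the pair in the cluster knockout (exact binomial 95% interval 9.80 to 15.6) against 20.6% in wild type (17.8 to 23.7), with 16.9% and 17.8% in the other 2 libraries.

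Of the other supply genes, Slc35b2, which carries PAPS into the Golgi, was nearly level at 93.4, 94.9, 95.4 and 95.9 CPM, and its ratios lay between 0.972 and 1.02. Ugp2, which makes UDP-glucose, was at 91.0 to 102 CPM. Ugdh, which oxidizes UDP-glucose to UDP-glucuronic acid, was at 86.7 in wild type, 107 in the cluster knockout, 122 in the miR-26a knockout and 134 with the mimic, and its ratio was 1.40 (1.11 to 1.78) in the miR-26a knockout against wild type. Slc35d1, a carrier of UDP-sugars into the endoplasmic reticulum that cartilage needs for chondroitin sulfate, was at 30.9 to 42.0 CPM, and all of its intervals in the 4 comparisons held 1.

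**Figure D3:**
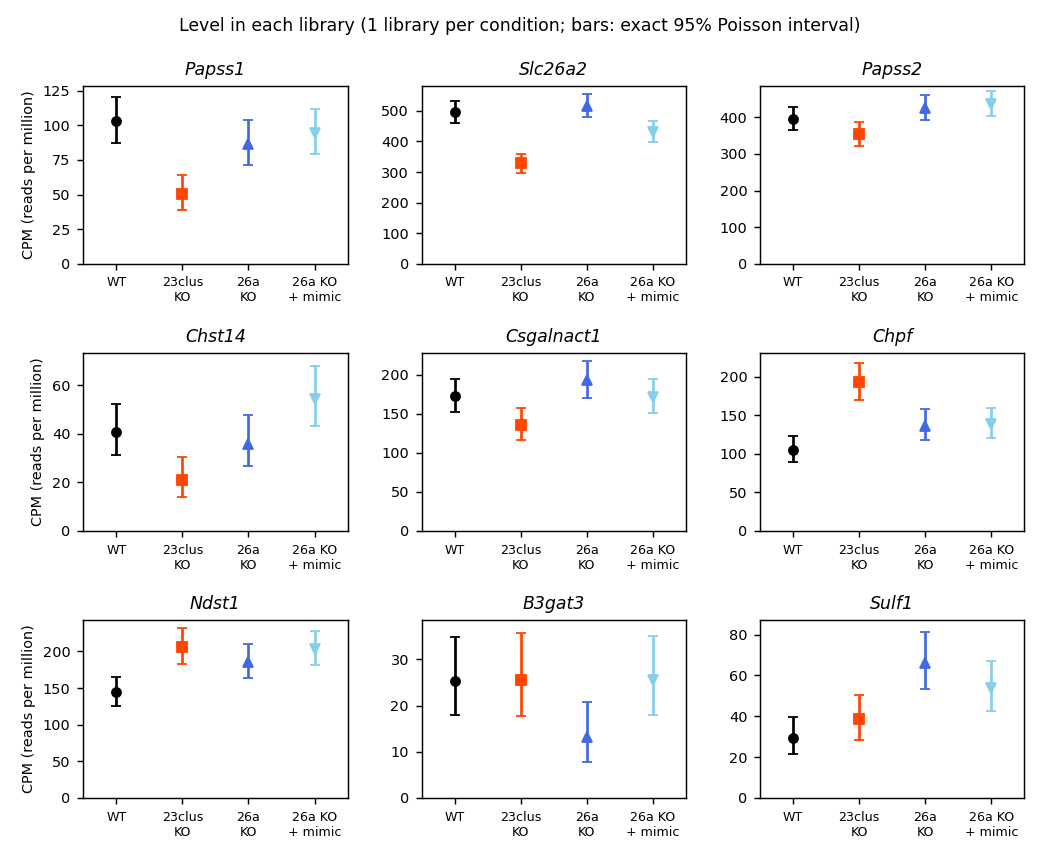
CPM (points, linear axes from 0) with exact 95% Poisson intervals of 9 genes in the 4 libraries, chosen after their values were seen. Papss1, Slc26a2, Papss2, Chst14 and Csgalnact1 are lowest in the cluster knockout, Chpf is highest there, Ndst1 is lowest in wild type, B3gat3 is lowest in the miR-26a knockout and Sulf1 is highest in the miR-26a knockout.

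The linker that joins each chain to its core protein is started by the xylosyltransferases Xylt1 and Xylt2. Xylt1 (chr7:117380979-117673580, + strand), with the most reads of this role, was at 90.1 CPM in wild type, 97.1 in the cluster knockout, 101 in the miR-26a knockout and 93.2 with the mimic, and all of its intervals in the 4 comparisons held 1. Xylt1 gave 82.3% to 89.0% of the reads of the xylosyltransferase pair. Xylt2 was at 12.0 to 20.0 CPM, with 16 to 29 reads per library. Of the galactosyltransferases, B4galt7 was at 26.0, 32.4, 32.3 and 42.8 CPM, lowest in wild type and highest with the mimic, and B3galt6 was at 13.1 to 16.7. Fam20b, the kinase that phosphorylates the xylose, was at 41.4 to 55.0.

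B3gat3 (chr19:8920374-8927236, + strand), which adds the glucuronic acid that completes the linker, differed in 1 library. It was at 25.4 CPM in wild type, 25.6 in the cluster knockout, 13.2 in the miR-26a knockout and 25.5 with the mimic, from 38, 34, 18 and 37 reads. The miR-26a knockout was thus lower than the other 3 libraries, at 0.520 of wild type (0.279 to 0.934). The ratio of the mimic library to the miR-26a knockout was 1.92 (1.07 to 3.58), and which library received the negative control siRNA is not stated.

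Chondroitin chains are begun by Csgalnact1 and Csgalnact2 and lengthened by Chsy1, Chsy3, Chpf and Chpf2. Chsy1 (chr7:66109515-66173798, + strand) had the most reads of this role over all libraries together. Its level was 218 CPM in wild type, 203 in the cluster knockout, 146 in the miR-26a knockout and 177 with the mimic. The miR-26a knockout library was lowest, at 0.670 of wild type (0.559 to 0.802). Chsy3 was low in all libraries, at 11.3 to 19.1 CPM with 15 to 26 reads.

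The polymerizing factor Chpf (chr1:75474569-75479307, − strand) was at 105 CPM in wild type, 193 in the cluster knockout, 136 in the miR-26a knockout and 139 with the mimic. Wild type was lowest and the cluster knockout highest, 1.80-fold above wild type (1.47 to 2.20) and 1.38-fold above the miR-26a knockout (1.14 to 1.68). Its relative Chpf2 had the opposite order of these libraries, at 117, 87.3, 108 and 106 CPM, with a ratio of 0.730 (0.572 to 0.928) in the cluster knockout. Chpf gave 47.3% of the reads of the pair in wild type (41.8 to 52.8), 68.8% in the cluster knockout (63.8 to 73.5), 55.9% in the miR-26a knockout and 56.8% with the mimic. The sum of the 6 polymerizing genes stayed between 651 and 683 CPM. Without Chpf the other 5 summed to 559, 490, 525 and 512 CPM, lowest in the cluster knockout.

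Csgalnact1 (chr8:68356781-68735146, − strand), which starts chondroitin chains in cartilage, was at 172, 136, 193 and 172 CPM, again lowest in the cluster knockout with a ratio of 0.768 (0.631 to 0.933) to wild type. Csgalnact2 was at 37.4, 53.5, 58.7 and 44.9 CPM, lowest in wild type, with a ratio of 1.57 (1.10 to 2.25) in the miR-26a knockout. Csgalnact1 gave 82.2% of the reads of the pair in wild type (77.5 to 86.2) and 71.7% in the cluster knockout (65.7 to 77.2).

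**Figure D4:**
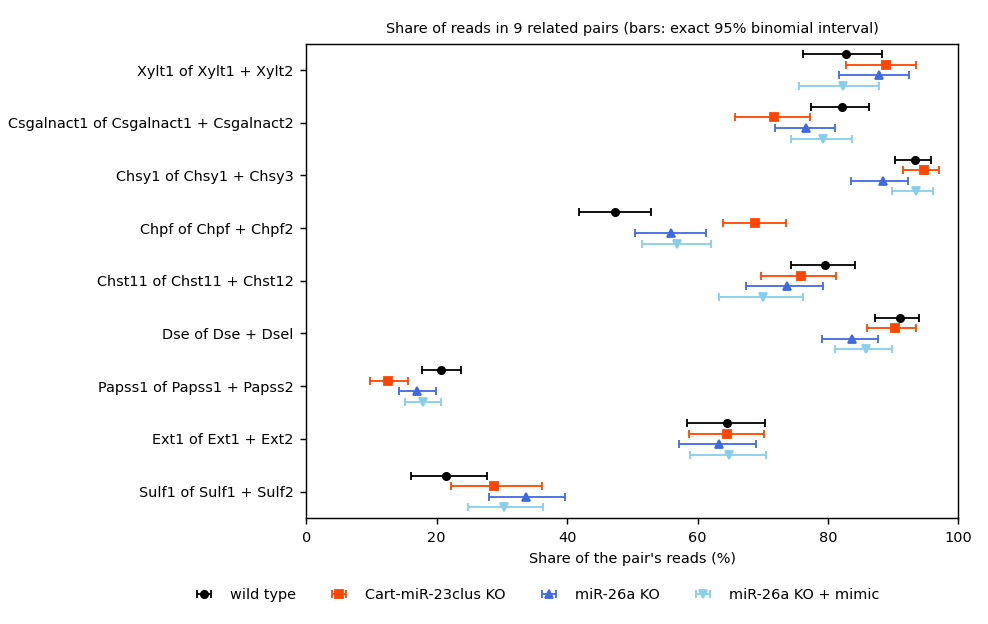
Share of the reads of 9 pairs of related genes that came from the first gene (percent, axis from 0 to 100), with exact 95% binomial intervals, in the 4 libraries. The Chpf share is 47.3% in wild type and 68.8% in the cluster knockout and the Papss1 share 20.6% and 12.5%, whereas the Ext1 share stays between 63.2% and 64.8%.

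Among the enzymes that modify chondroitin and dermatan, the epimerase Dse (chr10:34151393-34207715, − strand), which turns glucuronic into iduronic acid, had the most reads. It was at 184, 181, 181 and 159 CPM, and all of its intervals in the 4 comparisons held 1. The related Dsel was at 18.0 in wild type, 19.6 in the cluster knockout, 35.2 in the miR-26a knockout and 26.2 with the mimic. Its highest value, from 48 reads, was 1.95-fold above wild type (1.19 to 3.25).

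Chst14 (chr2:118926496-118928585, + strand), the 4-O-sulfotransferase of dermatan, was at 40.7 CPM in wild type, 21.1 in the cluster knockout, 36.0 in the miR-26a knockout and 54.5 with the mimic, from 61, 28, 49 and 79 reads. The cluster knockout library was lowest, at 0.505 of wild type (0.311 to 0.803), and the mimic library highest, 1.51-fold above the miR-26a knockout (1.04 to 2.20). Of the chondroitin 4-O-sulfotransferases, Chst11 was at 148, 130.3, 123 and 100.1 CPM, and its intervals in the 4 comparisons all held 1, while the mimic library was at 0.670 of wild type (0.540 to 0.830) and the cluster knockout 1.28-fold above the mimic library (1.02 to 1.61). Chst12 was at 38.0 to 44.0.

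Of the 10 genes of this role, 5 were under the read minimum. Chst3, a chondroitin 6-O-sulfotransferase that is well known in cartilage, had 1, 2, 0 and 1 reads in wild type, the cluster knockout, the miR-26a knockout and the mimic library. Chst7, with the same activity, had 3, 2, 4 and 7 reads. The reads of both are at or near the floor, so no difference between libraries was detectable at this depth. Chst13, a further 4-O-sulfotransferase, had 5, 0, 2 and 0 reads. Chst15, which adds a second sulfate to 4-sulfated chondroitin, had 13, 5, 2 and 3 reads, with a ratio of 0.169 (0.0185 to 0.746) in the miR-26a knockout against wild type, and its row is shared with an overlapping locus. Ust, the uronyl 2-O-sulfotransferase, had 13, 9, 9 and 11 reads.

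Has2, which makes hyaluronan at the cell membrane, was also under the read minimum. It had 16 reads in wild type, 7 in the cluster knockout, 14 in the miR-26a knockout and 9 with the mimic, or 10.7, 5.27, 10.3 and 6.21 CPM. The ratio of the cluster knockout to wild type was 0.482 with an interval from 0.168 to 1.24, so a difference was not detectable at this depth.

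The 7 heparan sulfate genes were higher in the miR-26a knockout than in wild type for 6 of 7, with a median log2 ratio of 0.22 beside 0.03 over all genes, and higher in the cluster knockout for 5 of 7, with a median of 0.23 beside -0.02. The 6 other heparan sulfate genes with enough reads were split, with 2 higher and 4 lower in the miR-26a knockout (median -0.07) and 2 higher and 4 lower in the cluster knockout (median -0.24). Ndst1, which removes acetyl groups from the chain and adds N-sulfate in their place, had the most reads. It was at 144 CPM in wild type, 206 in the cluster knockout, 186 in the miR-26a knockout and 204 with the mimic. Wild type was lowest, and the ratios were 1.40 (1.16 to 1.68) in the cluster knockout and 1.29 (1.07 to 1.55) in the miR-26a knockout.

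Sulf1 (chr1:12692277-12861192, + strand), an extracellular sulfatase that takes 6-O-sulfate off heparan sulfate, was at 29.4 CPM in wild type, 38.4 in the cluster knockout, 66.0 in the miR-26a knockout and 53.8 with the mimic, from 44, 51, 90 and 78 reads. The miR-26a knockout library was highest, 2.25-fold above wild type (1.55 to 3.30), and the cluster knockout library was at 0.568 of it (0.395 to 0.810). With the mimic Sulf1 was at 0.810 of the level in the miR-26a knockout, with an interval from 0.590 to 1.11 that holds 1. The fibroblast markers were also highest in the miR-26a knockout and mimic libraries, and their part in the values of Sulf1 was not tested. The second extracellular sulfatase, Sulf2, was at 107, 94.9, 129.9 and 124 CPM. Its interval left out 1 in only 1 of the 4 comparisons, the cluster knockout against the miR-26a knockout (0.714, 0.563 to 0.902), and also left out 1 for the cluster knockout against the mimic library (0.755, 0.597 to 0.954).

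The heparan sulfate polymerase subunits were close to level. Ext1 was at 114, 137, 126 and 121 CPM and Ext2 at 62.7, 75.3, 73.4 and 65.6, and Ext1 gave 63.2% to 64.8% of their reads. Extl3, which starts the chain, was at 49.0 to 62.5 CPM, and Hs6st1, a heparan 6-O-sulfotransferase, at 15.3 to 19.6. All intervals of these 4 genes held 1.

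A further 100 genes of the pathway were listed by role beside the 37, of which 98 were in the files and 58 had enough reads. Of the 58, 7, or 12.1%, passed 2-fold in at least 1 comparison, as did 10.8% of all genes. Hs6st2, another heparan 6-O-sulfotransferase, was at 127 CPM in wild type, 368 in the cluster knockout, 122 in the miR-26a knockout and 112 with the mimic, a ratio of 2.83 (2.39 to 3.37) to wild type. The interval of this ratio lay above that of its relative Hs6st1 (1.24, 0.683 to 2.28). The phosphatase Pxylp1, which removes the phosphate that Fam20b puts on xylose, had 23, 49, 47 and 43 reads, with ratios to wild type of 2.35 (1.40 to 4.03) and 2.24 (1.34 to 3.87) in the 2 knockouts. Gfpt2, of hexosamine synthesis, had 25, 15, 43 and 27 reads and a ratio of 0.350 (0.180 to 0.642) between the cluster knockout and the miR-26a knockout.

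Among 17 proteoglycan core proteins with enough reads, 9 were higher and 8 lower in the cluster knockout than in wild type. Gpc1, a heparan sulfate glypican, was at 489, 174, 306 and 422 CPM, and its ratio was 0.347 (0.298 to 0.403). Cspg4, a membrane chondroitin sulfate proteoglycan, was at 151, 66.3, 99.8 and 129, with a ratio of 0.429 (0.331 to 0.551). Serglycin, Srgn, the proteoglycan of immune cell granules, was at 45.4, 107, 31.6 and 38.6, with a ratio of 2.30 (1.71 to 3.12). In the same library the macrophage markers were highest and the osteoblast markers lowest, with 9 of 11 below 0.5-fold of wild type, and their part in the levels of Srgn, Gpc1 and Cspg4 was not tested. The hyaluronan receptor Cd44 was at 44.7, 43.7, 90.3 and 85.6 CPM, with a ratio of 2.02 (1.49 to 2.76) in the miR-26a knockout against wild type. Has1 and Has3, the other hyaluronan synthases, were at 0 reads in all 4 libraries.

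Seed matches in 3′ UTRs were looked up to say which of the 37 genes carry letters that the removed miRNAs can pair with. The longest annotated 3′ UTR of each gene was read on its own strand for AATGTGA (miR-23), ACTGTGA (miR-27), CTGAGCC (miR-24) and TACTTGA (miR-26a), and none of these motifs contains another, although those of miR-23 and miR-27 end in the same 5 letters. The 37 genes had a median 3′ UTR of 1643 bases against 1308 over the 7288 genes with enough reads and an annotated UTR. A miR-23 match was found in 8 of 37 (21.6%, against 17.5% of the 7288), a miR-27 match in 8 (21.6% against 18.4%), a miR-24 match in 6 (16.2% against 19.5%) and a miR-26a match in 6 (16.2% against 12.6%). Papss1, Chpf, Chst14 and B3gat3 held none of the 4 motifs. Slc26a2 held matches for miR-27 and miR-26a, Csgalnact1 for miR-26a, Papss2 for miR-27, and Ndst1 for miR-23 and miR-24.

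The matches followed by an A, the longer form of 8 bases, were found for miR-23 in 4 genes (10.8% of the 37, against 7.5% of the 7288). For miR-27 they were found in Slc26a2 alone (2.7% against 6.3%). For miR-24 and miR-26a they were found in 2 genes each (5.4% against 8.7%, and 5.4% against 5.5%). Some of them are given as windows of 30 bases on the strand of the gene (GRCm38, exons of the 3′ UTR), with the 7 bases that match the seed in capitals. The remaining windows are not shown.
Csgalnact2, miR-23 (chr6:118107783-118107812, − strand): ttctaggtgctAATGTGAatccgattcaat
Chst7, miR-23 (chrX:20097313-20097342, + strand): acaaaaccatcAATGTGAataagggccaag
Has2, miR-23, first (chr15:56666930-56666959, − strand): aacctgcccaaAATGTGAaacgtggttgac
Has2, miR-23, second (chr15:56666610-56666639, − strand): tgtactggataAATGTGAacatccaagcca
B4galt7, miR-24 (chr13:55610074-55610103, + strand): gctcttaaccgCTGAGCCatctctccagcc
Xylt1, miR-26a (chr7:117668494-117668523, + strand): ggcctcttcggTACTTGAaagtgggagcgg
Ext1, miR-26a (chr15:53067314-53067343, − strand): atgtctgcttcTACTTGAaggaaccacaaa

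Among genes with enough reads, those with a miR-23 match were higher in the cluster knockout than in wild type in 2 of 6 (52.7% of all genes with the match, 47.0% of those without), those with a miR-27 match in 2 of 6 (50.4% and 47.4%) and those with a miR-24 match in 4 of 6 (48.7% and 47.8%). The 5 with a miR-26a match, Xylt1, Csgalnact1, Dse, Slc26a2 and Ext1, were higher in the miR-26a knockout than in wild type in 4 of 5 (58.2% of all genes with the match, 53.7% of those without). With the mimic all 5 were lower than in the miR-26a knockout (59.1% of all genes with the match were lower, 49.6% of those without), at ratios of 0.921, 0.885, 0.870, 0.829 and 0.951. Of these 5 ratios only that of Slc26a2 had an interval without 1. Both comparisons share the miR-26a knockout library, so these directions are not independent. Genes with a miR-27 match were also lower with the mimic in 5 of 6 (53.0% of all genes with the match). Those with a miR-23 match were lower in 4 of 6 (53.5%), and those with a miR-24 match in 4 of 6 (49.3%). Xylt1, Dse, Slc26a2 and Ext1 hold a miR-27 match as well. A match describes the letters of the UTR only, and pairing was not measured.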

How the data were processed

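The submitters prepared QuantSeq 3′ mRNA libraries, sequenced them as single reads of 75 bases and used mouse genome builds mm10 and GRCm38.p6; the aligner, counter and annotation are not given in the sources used here. The authors deposited TPM for all 4 libraries and estimated counts, here whole numbers, for 3. The reads of the mimic library were recovered from the steps of its deposited TPM (14250 of 14250 values tested were whole within 0.01 reads, 588 genes were not recovered). With 1 library per condition no test was made. Ratios are deposited TPM ratios with exact Clopper-Pearson 95% intervals from the reads, which cover counting error only. Genes needed 80 reads over the 4 libraries; medians are of log2(TPM + 0.5). Genes past 2-fold, the gene with most reads of each role and genes under the minimum were named with values; other named genes were chosen after their values were seen. The members and gene lists were chosen with earlier results of these data known. Seed matches used GENCODE M21 3′ UTRs of at least 50 bases. Figures and ratios were made with matplotlib 3.10.9, pandas 2.3.3, scipy 1.17.1 and numpy 2.4.6 under Python 3.11.15. The scalings by DESeq2 1.42.0 (size factors) and edgeR 4.0.16 (TMM) ran in R 4.3.3. Intervals and the recovery of reads were tested on simulated data. Counts of genes for which 1 library differed from the other 3, shares of gene pairs and directions of genes with a seed match were added after the data were seen.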

Additional observations from a re-analysis of the deposited data

How the results depend on the processing

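The counts of genes past 2-fold (1, 1, 0 and 0 for the cluster knockout against wild type, the miR-26a knockout against wild type, the mimic against the miR-26a knockout, and the cluster knockout against the miR-26a knockout) were the same with CPM, with the TMM or DESeq2 size factors and with at least 200 reads. Without a read minimum they were 4, 3, 0 and 1, leaving out genes with 0 reads in either library of a comparison (Chst13 in all but the second comparison, Chst3 in all but the first), with a fold of 1.5 they were 5, 4, 3 and 7, and with an interval that leaves out 1, a rule chosen after seeing the data, they were 8, 8, 3 and 11. Matches of 8 in place of 7 bases were found in 4 genes for miR-23, 1 for miR-27, 2 for miR-24 and 2 for miR-26a. Over all genes with enough reads and an annotated UTR the shares were 7.5%, 6.3%, 8.7% and 5.5%. All 426 recomputed ratios of single genes stayed within their intervals, and none of those past 2-fold with enough reads changed direction. Some ratios near 1 did, such as Slc35b2 in the cluster knockout against wild type, at 0.991 in TPM but 94.9 against 93.4 CPM. All 28 recomputed medians stayed within their intervals. That of the cluster knockout against wild type changed from -0.02 to 0.01 with CPM. Chst3, Chst7, Chst13, Chst15, Ust and Has2 were under the read minimum at this depth, and low depth and a low level were not told apart. Having 1 library per condition leaves animal, culture and condition together. No paired analysis was possible because there is only 1 library for each condition.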

Other observations

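The lysosomal enzymes that break glycosaminoglycans down were for the most part higher in the knockouts. Of 13 with enough reads, 10 were higher and 3 lower in the cluster knockout than in wild type (median log2 ratio 0.34), and 11 were higher and 2 lower in the miR-26a knockout (median 0.22), beside medians over all genes of -0.02 and 0.03. Of all genes without a miR-26a seed match 47.8% were higher in the cluster knockout than in wild type, and 49.5% of those with one. In the miR-26a knockout these shares were 53.7% and 58.2%. None of the 13 enzymes passed 2-fold in any comparison. Their sum over the list of 16 was 1099 CPM in wild type, 1509.7 in the cluster knockout, 1332 in the miR-26a knockout and 1392 with the mimic. Both comparisons share the wild type library. In the cluster knockout the macrophage markers had a median log2 ratio of 0.29, the osteoblast markers of -2.27 and the cell cycle genes of 1.08, and in the miR-26a knockout these were -1.70, -0.70 and 1.05. Their part in the values of the lysosomal enzymes was not tested.

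Keratan sulfate, the third sulfated chain of cartilage, is made by enzymes of which 6 of 10 listed had enough reads. All 6 were lower in the cluster knockout than in the miR-26a knockout, with a median log2 ratio of -0.28 beside -0.06 over all genes, and none passed 2-fold. In this comparison all 10 macrophage markers with enough reads were above 2-fold (median 1.77), while the osteoblast markers had a median of -1.04 and the fibroblast markers one of -0.64, and their part in the values of these enzymes was not tested. Against wild type, 3 were higher and 3 lower in the cluster knockout (median -0.02), and 5 were higher and 1 lower in the miR-26a knockout (median 0.29). Their list summed to 278, 245, 304 and 308 CPM in wild type, the cluster knockout, the miR-26a knockout and the mimic library.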
